A study of Mus musculus with 2 samples.

Results

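ATF4-response and tRNA synthetase genes were examined in splenic dendritic cells cultured with IL-27 or with vehicle. Dendritic cells are the white blood cells that present antigen to T cells, and IL-27 is a cytokine related to IL-12. Each condition was read on 1 array. The IL-27 sample and the vehicle sample both came from wild-type C57BL/6 mice aged 8 weeks, and the dendritic cells of both were isolated from spleen by flow cytometry. The labels give the culture time as "ON", which is not expanded here, and the number of mice or cultures behind each sample is not stated. The genes were chosen by symbol from a list of 39, and each was read by the probe set with the highest mean log2 intensity among probe sets annotated to exactly 1 gene. In all, 37 of the 39 were measured, among 19935 genes of the series, 36 of them under the listed symbol and Mars as Mars1, its current symbol. Aars and Pycr1 had no probe set of their own and are not analysed here. The list was drawn up with the IL-27 and vehicle values of these same arrays known, so the differences below are a description and carry no test. With 1 array per condition there is no replicate spread, so errors and p-values cannot be given.

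ATF4 is a transcription factor that is made mainly through translation. When a kinase such as GCN2, PERK, PKR or HRI phosphorylates the initiation factor eIF2, general translation drops while Atf4 mRNA is translated more. ATF4, often paired with a C/EBP protein, then raises genes that make amino acids, import them and charge them onto tRNA, along with the factors CHOP and TRIB3. Aminoacyl-tRNA synthetases are the enzymes that join each amino acid to its tRNA. The best known triggers in cultured cells are scarce amino acids, oxidative stress and misfolded protein in the endoplasmic reticulum.

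The members were mostly brighter on the IL-27 array, led by Asns and Chac1. A gene was called higher or lower where its log2 difference (IL-27 minus vehicle) was at least 1 in size, that is 2-fold, and its brighter array reached the median of all probe set values, an intensity of 96.2. Of 34 members over that level, 6 were higher, 0 were lower and 28 were neither. Among all 11140 genes over the level, 1.52% were higher and 13.2% were lower. Of the 37 measured members 30 had a difference above 0 (81.1%), beside 53.4% of all genes and 29.1% of those over the level. The members' median difference was 0.53, from -0.95 to 2.84. The median was 0.04 over all 19935 genes and -0.34 over those above the level minimum. At 1.5-fold, 15 of the 34 members were higher and 2 lower, beside 5.86% and 33.7% of all genes over the level. Since the values chose the members, these shares only show where the list lies on the arrays. In such bulk samples, a lower amount of a transcript per cell and a smaller share of cells that carry it cannot be told apart.

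**Figure D1:**
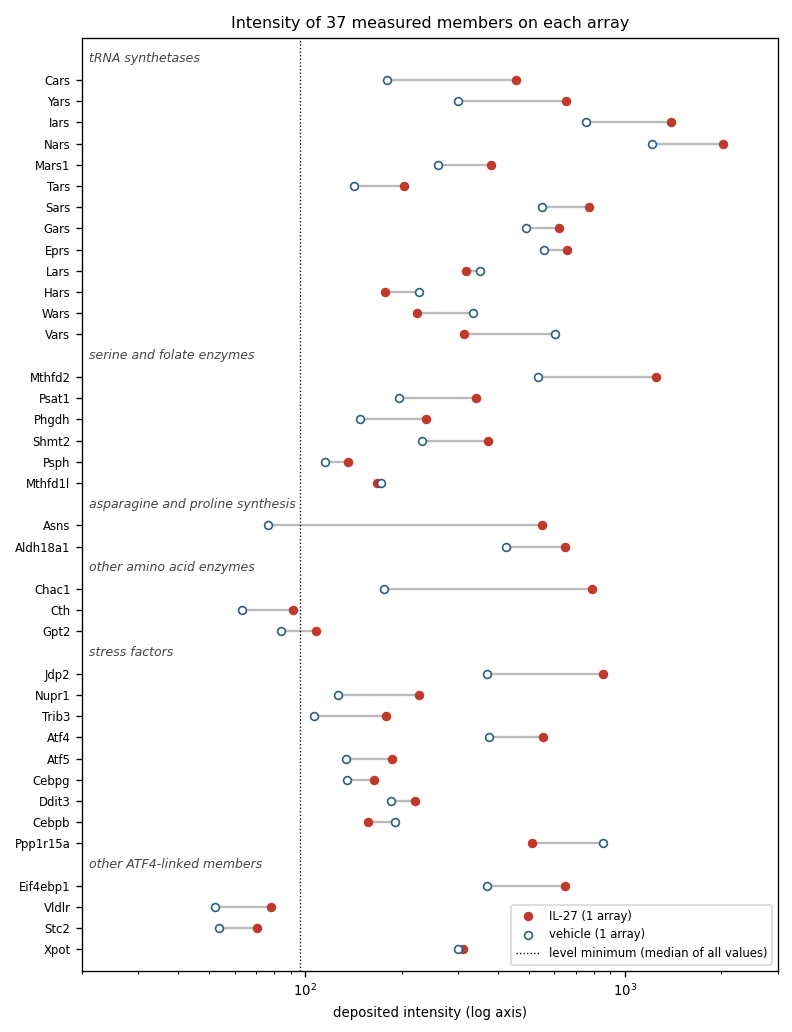
Deposited intensity (log axis) of the 37 measured members, by subgroup, on the IL-27 array (filled) and the vehicle array (open), 1 array each; the dotted line is the level minimum of 96.2. Asns and Chac1 show the widest gaps, while Vars and Ppp1r15a lie furthest to the left on the IL-27 array relative to vehicle.

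Asns, asparagine synthetase, makes asparagine from aspartate and is a classic target of ATF4. Its probe set 10543067 read an intensity of 550 with IL-27 and 76.6 with vehicle, a log2 difference of 2.84. The vehicle value lay just below 77.3, the 95th percentile of 1027 olfactory receptor genes on that array. Olfactory receptors are not expected in dendritic cells, so that percentile was used as a limit of what can be told from such genes, and against it Asns was at least 7.12-fold higher. By its difference Asns ranked 2 among the 11140 genes over the level minimum. Chac1, which breaks down glutathione, had 788 with IL-27 and 176 with vehicle, 4.48-fold higher, and ranked 9. Cars, Mthfd2, Jdp2 and Yars, the other members past the size rule, ranked 62, 92, 97 and 128.

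The upstream sequence of the genes was read because ATF4 binds, with C/EBP partners, to a composite element whose core is TGATGNAA. RefSeq promoter windows (GRCm38.p6, 250 bases before to 50 after a start) were at hand for 31 of the 39 members. The windows before the start of Asns and Chac1, the members with the largest differences, are shown 5′ to 3′ on the gene's strand with the match to TGATGNAA, or its reverse complement, in capitals. That of Asns covers chr6:7693210-7693459 (- strand) and its match begins 23 bases before the start, and that of Chac1 covers chr2:119350992-119351241 (+ strand) with a match beginning 193 bases before the start.
Asns: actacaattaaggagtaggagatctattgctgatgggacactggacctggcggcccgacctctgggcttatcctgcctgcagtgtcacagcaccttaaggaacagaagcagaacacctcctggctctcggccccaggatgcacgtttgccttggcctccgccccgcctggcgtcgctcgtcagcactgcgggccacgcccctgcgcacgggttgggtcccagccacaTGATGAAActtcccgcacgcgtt
Chac1: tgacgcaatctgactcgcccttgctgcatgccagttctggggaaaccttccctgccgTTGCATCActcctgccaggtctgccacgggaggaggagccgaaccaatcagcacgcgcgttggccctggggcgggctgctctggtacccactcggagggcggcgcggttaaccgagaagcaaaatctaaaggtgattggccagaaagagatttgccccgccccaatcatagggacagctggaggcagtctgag

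The motif TGATGNAA was found on either strand in the window of 12 of 31 members (38.7%) and of 1219 of 27025 genes in the promoter table (4.51%). It was found in Asns, Chac1, Jdp2, Yars, Iars, Nupr1, Trib3, Vldlr, Tars and Gars, and in the unmeasured Aars and Pycr1. Its stricter form TGATGCAA, each match of which is also a match to TGATGNAA, was in 9 of the 31 (29.0%) and in 1.03% of all genes. With only the 250 bases before the start, 9 of 31 members held TGATGNAA, beside 3.91% of all genes. The cyclic AMP response element TGACGTCA, a site of other ATF and CREB factors, was in Ppp1r15a alone among the 31, and in 2.03% of all genes. The members were listed as ATF4-response or tRNA synthetase genes, and ATF4 binds the core TGATGNAA. A greater share of matches among them therefore follows in part from how the list was made, and does not bear on IL-27. A match is a description of the letters, and binding was not measured here.

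The matched sites of the other measured members are shown in order of their difference, each as 30 bases 5′ to 3′ on the gene's strand, with the match in capitals, to let the shared core and its unlike flanks be seen.
Jdp2: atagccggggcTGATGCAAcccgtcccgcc
Yars: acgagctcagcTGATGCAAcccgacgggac
Iars: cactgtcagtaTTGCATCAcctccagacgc
Nupr1: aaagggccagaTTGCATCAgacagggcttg
Trib3: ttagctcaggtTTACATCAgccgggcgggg
Vldlr: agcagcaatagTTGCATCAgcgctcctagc
Tars: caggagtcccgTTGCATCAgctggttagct
Gars: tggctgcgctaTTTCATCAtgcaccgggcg

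Of these sites, those of Jdp2 (chr12:85599372-85599401 (+ strand)) and Yars (chr4:129189895-129189924 (+ strand)) read TGATGCAA on the gene's own strand. The sites of Iars (chr13:49682126-49682155 (+ strand)), Nupr1 (chr7:126625562-126625591 (- strand)), Vldlr (chr19:27216809-27216838 (+ strand)) and Tars (chr15:11399655-11399684 (- strand)) hold the same letters on the opposite strand. Trib3 (chr2:152344028-152344057 (- strand)) and Gars (chr6:55037960-55037989 (+ strand)) differ from them at the free base of the motif, also on the opposite strand. The first base of the match lay 33, 110, 200, 15 and 30 bases before the start in Jdp2, Nupr1, Vldlr, Tars and Gars, and at base 4, 8 and 15 after it in Yars, Iars and Trib3.

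Measured members with the motif had a larger median difference than those without it. All 10 with a match were brighter on the IL-27 array, from 0.34 (Gars) to 2.84 (Asns), with a median difference of 0.86, and 4 of the 10 were at least 2-fold higher. The 19 with a window and no match had a median of 0.40 and ran from -0.73 (Ppp1r15a) to 1.23 (Mthfd2), with 16 above 0 and 1 at least 2-fold higher. Outside the list, 242 genes over the level minimum held the motif, and their median difference was -0.28, against -0.36 for 8666 genes without it. At least 2-fold higher were 3.31% of the 242 and 1.32% of the 8666. Cars, Hars, Lars, Nars, Vars, Wars, Cth and Eif4ebp1 had no window here and are in neither block. They include Cars, past the size rule, and Vars, Wars, Hars and Lars, with differences below 0. The members were picked with these values known, and Vldlr, with a match, and Stc2, without one, lay below the level minimum. In the related lists below, the motif was in Slc7a11 (2.64), Got1 (0.96), Slc1a4 (0.75), Fgf21 (0.24), Herpud1 (0.18), Eif2s3x (-0.34) and Atf3 (-1.15). These are counts over genes on the same 2 arrays and carry no test.

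**Figure D2:**
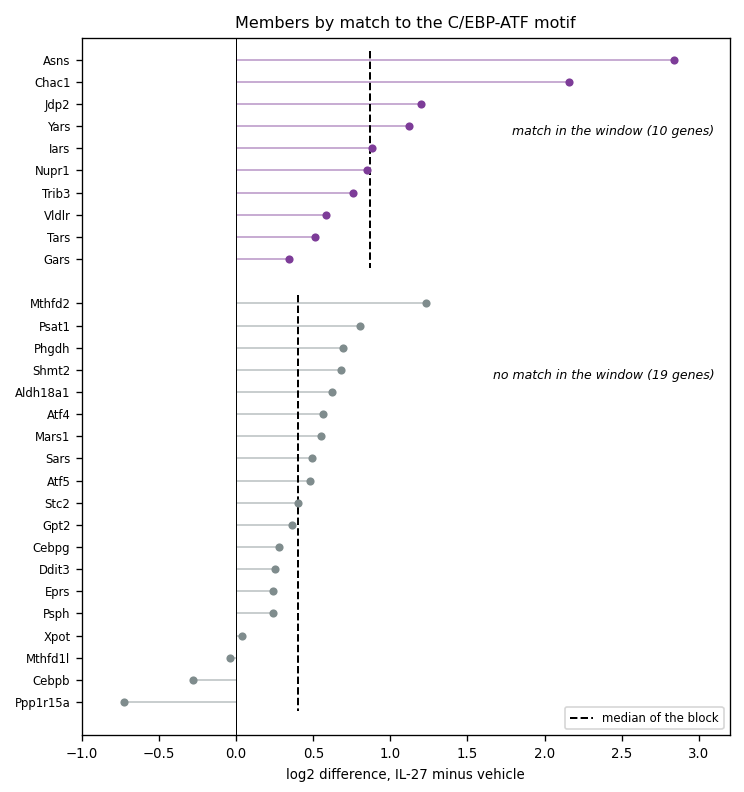
Log2 difference (IL-27 minus vehicle) of the 29 measured members with a RefSeq promoter window, those with a TGATGNAA match above and those without below; the dashed line is the median of each block, 0.86 and 0.40. The genes with a match all lie above 0, and 3 of the genes without lie below it.

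Among the tRNA synthetases, Cars and Yars were higher by the size rule and the other 11 of 13 measured were neither. Of all genes over the level 1.52% were higher, but these members were picked with their values known. Cars, the cysteinyl enzyme, had an intensity of 456 with IL-27 and 180 with vehicle, 2.53-fold higher. Yars, the tyrosyl enzyme, had 654 with IL-27 and 301 with vehicle, 2.17-fold higher. The group's median difference was 0.49, and 9 of the 13 had a difference above 0.
Iars, the isoleucyl enzyme, had 1392 with IL-27 and 757 with vehicle, a difference of 0.88, and its second probe set gave 0.94. Nars, the asparaginyl enzyme, had 2029 with IL-27 and 1215 with vehicle (0.74). Mars1, the methionyl enzyme, had 380 with IL-27 and 260 with vehicle (0.55). All of these were brighter with IL-27 but short of 2-fold.
Tars and Sars, for threonine and serine, differed by 0.51 and 0.49. Gars, which charges glycine in both cytosol and mitochondria, differed by 0.34, and Eprs, the fused glutamyl and prolyl enzyme, by 0.24.
The remaining synthetases were dimmer with IL-27. Vars, the valyl enzyme, had 313 with IL-27 and 604 with vehicle, a difference of -0.95 that was just short of the size rule. Wars, the tryptophanyl enzyme, which interferon induces in many cells, had 224 with IL-27 and 334 with vehicle (-0.57). Hars and Lars, for histidine and leucine, differed by -0.35 and -0.15. Their values moved with the scale used. With the level-dependent trend of all genes removed, Hars, Lars, Vars and Wars stood at 0.10, 0.38, -0.45 and -0.05.

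Cytosolic synthetases that are not members, with the scaffold of the multi-synthetase complex, did not share this pattern of values. Of 8 measured genes (Farsa, Farsb, Kars, Qars, Rars, Aimp1, Aimp2 and Eef1e1) none was higher and none lower by the size rule. Among all genes over the level 1.52% were higher and 13.2% lower. The list's median difference was -0.42, and 1 of the 8 lay above 0. Farsb, a subunit of the phenylalanyl enzyme, had 206 with IL-27 and 355 with vehicle (-0.79). Kars, the lysyl enzyme, had 123 with IL-27 and 209 with vehicle (-0.77). Its IL-27 value lay within the olfactory range, so the size of that difference is not firm. Aimp1 and Qars differed by -0.66 and -0.50, and Rars, the arginyl enzyme, by 0.04. The multi-synthetase complex joins some synthetases to Aimp1, Aimp2 and Eef1e1, and its enzymes were found on both sides of 0, with Iars at 0.88 and Mars1 at 0.55 above it and Kars and Qars below. The members had been picked with these values known, so the split between listed and unlisted synthetases is no finding in itself.

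The mitochondrial synthetases, which charge tRNA for the few proteins made in that organelle, were not on the list. Their median lay below that of all genes over the level minimum. Of 15 over the level minimum 0 were higher and 2 lower, a share close to the 13.2% of all genes that were lower. The median of those 15 was -0.50, against -0.34 for all genes over the level, and that of the 16 measured was -0.46. Of the 16, 2 lay above 0 (12.5%), beside 29.1% of all genes over the level. With the level trend removed the median of the 16 was -0.33. The share above 0 was then again 12.5%, beside 49.7% of all genes over the level. Iars2 had 117 with IL-27, within the olfactory range there, and 318 with vehicle, and was at least 2.46-fold lower. Rars2 was at least 1.43-fold lower, with 87.7 with IL-27 and 185 with vehicle. Hars2 and Cars2 differed by -0.85 and -0.77. Of the listed cytosolic synthetases, 11 had a measured mitochondrial enzyme of the same name, and in 9 of these pairs the cytosolic enzyme had the greater difference. The gap, cytosolic minus mitochondrial, had a median of 0.91 and ran from -0.28 for valine to 2.32 for isoleucine. The cytosolic side of each pair was picked with its value known, so the gap restates that choice in part. Outside the list, Rars differed by 0.04 and Rars2 by -1.08, while Farsa and Farsb differed by -0.23 and -0.79 and Fars2 by -0.25. Eprs, a member with a pair of mitochondrial counterparts, differed by 0.24, Ears2 by -0.18 and Pars2 by 0.08. On the IL-27 array 10 of the 16 mitochondrial synthetases lay within the olfactory range, so the sizes of their differences are not firm.

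**Figure D3:**
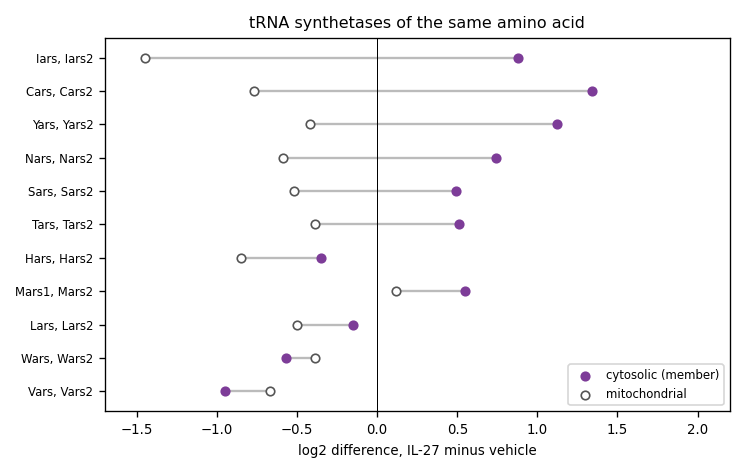
Log2 difference (IL-27 minus vehicle) of listed cytosolic tRNA synthetases (filled) and the mitochondrial enzyme of the same amino acid (open), 1 row per amino acid, ordered by the gap. In 9 of 11 rows the cytosolic enzyme lies to the right, with Wars and Vars as the exceptions.

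Of the serine and folate enzymes, picked with their values known, Mthfd2 was higher and 5 were neither. Of all genes over the level 1.52% were higher. Mthfd2, which handles folate-bound carbon units in mitochondria, had 1248 with IL-27 and 534 with vehicle, 2.34-fold higher. Psat1, in the chain that makes serine from a glycolytic intermediate, had 342 with IL-27 and 196 with vehicle (0.80). Phgdh, which starts that chain, had 238 with IL-27 and 148 with vehicle (0.69). The values of these 3 enzymes were each brighter with IL-27, and only that of Mthfd2 passed 2-fold.
Shmt2, the mitochondrial enzyme that splits serine into glycine and a folate-bound carbon, had 372 with IL-27 and 232 with vehicle (0.68). Psph, which ends serine synthesis, had 136 with IL-27 and 115 with vehicle (0.24). Mthfd1l, downstream of Mthfd2, had 168 with IL-27 and 172 with vehicle (-0.04), and quantile normalization turned this to 0.18 and removal of the trend over all genes to 0.32. The subgroup's median was 0.69, and none of its 6 promoter windows held TGATGNAA. All 12 measured genes of a list of other folate and glycine enzymes were at or below the olfactory limit with IL-27, so the sizes of their differences are not firm. Of its 5 genes over the level minimum 0 were higher and 2 lower, beside 1.52% and 13.2% of all genes over it. The median of those 5 was -0.80, and that of all 12 was -0.07. The lower genes were Mthfd1, the cytosolic folate enzyme, with 101 with IL-27 and 233 with vehicle (at least 1.80-fold), and Mtr, methionine synthase, with 105 with IL-27 and 238 with vehicle (at least 1.84-fold). As deposited, Slc25a32, the mitochondrial folate carrier, had 90.8 with IL-27 and 158 with vehicle, and Tyms, thymidylate synthase, had 98.4 with IL-27 and 155 with vehicle. Mthfd1 and Tyms also serve DNA synthesis.

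Aldh18a1, which starts proline synthesis from glutamate, had 650 with IL-27 and 423 with vehicle (0.62). Cth, which makes cysteine from cystathionine, had 91.3 with IL-27 and 63.3 with vehicle, within the olfactory range of both arrays. Gpt2, a mitochondrial alanine transaminase, had 108 with IL-27 and 84.0 with vehicle and could not be told from olfactory genes on the IL-27 array. Among other amino acid enzymes, fixed as a list, 0 of 11 over the level minimum were higher, beside 1.52% of all genes over it. Beside 13.2% of all genes, 1 of the 11 was lower. That was Glul, glutamine synthetase, with 867 with IL-27 and 1850 with vehicle, whose second probe set also pointed down (-1.59). Got1, the cytosolic aspartate transaminase, had 2383 with IL-27 and 1226 with vehicle (0.96), just short of the size rule, while the mitochondrial Got2 differed by -0.24. Arg2, within the olfactory range of both arrays, differed by 0.88 and Bcat2 by -0.80. The median of the 14 measured genes of this list was -0.04, and that of the 11 over the level minimum was -0.24.

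Of the stress factors, picked with their values known, Jdp2 was higher and 8 were neither, with a median difference of 0.48. Of all genes over the level 1.52% were higher. Jdp2, a bZIP repressor related to ATF3, had 852 with IL-27 and 370 with vehicle, 2.31-fold higher. Nupr1, a small stress-induced nuclear protein, had 227 with IL-27 and 126 with vehicle (0.85). Trib3, a pseudokinase that restrains ATF4 and CHOP, had 179 with IL-27 and 106 with vehicle (0.76). All of these were brighter on the IL-27 array.
Atf4 itself had 552 with IL-27 and 374 with vehicle (0.56), and Atf5, its close relative, had 187 with IL-27 and 134 with vehicle (0.48). Ddit3, which encodes CHOP, had 220 with IL-27 and 185 with vehicle (0.25). Cebpg, a C/EBP partner of ATF4, differed by 0.28. These differences are small beside those of Asns and Chac1, and ATF4 protein was not measured.
Of this group, Cebpb and Ppp1r15a were dimmer with IL-27. Cebpb had 157 with IL-27 and 190 with vehicle (-0.28, or 0.09 with the level trend removed). Ppp1r15a, which encodes GADD34, the subunit that directs a phosphatase to eIF2, had 513 with IL-27 and 851 with vehicle (-0.73). Ppp1r15a is itself a known target of ATF4 and CHOP, and it lay on the opposite side from Asns, Chac1 and Trib3.

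Of the remaining members, Eif4ebp1, which encodes the translation inhibitor 4E-BP1, had 650 with IL-27 and 369 with vehicle (0.82). Xpot, the exporter of tRNA from the nucleus, had 310 with IL-27 and 301 with vehicle (0.04). Vldlr, a lipoprotein receptor, had 77.8 with IL-27 and 52.2 with vehicle. Stc2, a secreted glycoprotein, had 70.7 with IL-27 and 53.6 with vehicle. Both Vldlr and Stc2 lay within the olfactory range of both arrays and below the level minimum.

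Amino acid transporters, which are no members, leaned the same way, but this list too was chosen with earlier results of these data known. Of 12 over the level minimum 3 were higher and 1 was lower, beside 1.52% and 13.2% of all genes over it. The median of the 14 measured was 0.46, and that of all genes over the level was -0.34. Slc7a11, which imports cystine, had 969 with IL-27 and 156 with vehicle (2.64). Slc7a5, the large neutral amino acid carrier, had 1651 with IL-27 and 484 with vehicle (1.77). Slc7a1, the cationic amino acid carrier, had 754 with IL-27 and 309 with vehicle (1.29). Slc3a2, the chain that Slc7a5 and Slc7a11 pair with, differed by 0.39 at intensities of 4555 with IL-27 and 3480 with vehicle. Slc36a1, a lysosomal amino acid carrier, was the lower gene, with 145 with IL-27 and 324 with vehicle (-1.16, or -0.69 with the level trend removed). Slc36a4 (-0.82, within the olfactory range with IL-27) and Slc7a6 (-0.26, or 0.27 with the level trend removed) also lay below 0. Slc7a11 is also a target of NRF2, the oxidant-sensing factor.

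Further genes linked to ATF4 in other cells did not lie on 1 side. Of 7 over the level minimum 1 was higher and 2 were lower, beside 1.52% and 13.2% of all genes over it. Sqstm1, the autophagy receptor p62 and also an NRF2 target, had 6055 with IL-27 and 2688 with vehicle (1.17). Sesn2, a sestrin that restrains mTORC1, had 620 with IL-27 and 431 with vehicle (0.53). Ddit4, another inhibitor of mTORC1, had 216 with IL-27 and 626 with vehicle (-1.53). Atf3, a bZIP factor that ATF4 can induce, had 1545 with IL-27 and 3422 with vehicle (-1.15, or -0.94 with the level trend removed). Wfs1, of the endoplasmic reticulum membrane, differed by -0.55. The median of the 10 measured was 0.18 and their mean -0.11, so the 2 summaries differ in sign. The median of the 7 over the level minimum was -0.46, against -0.34 for all genes over it. The remaining genes, Fgf21, Adm2 and Tnfrsf10b, lay within the olfactory range of both arrays.

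Transcripts for the machinery upstream of ATF4 had a median below that of genes at large. Among eIF2 kinases, the eIF2 phosphatase and eIF2 subunits, 0 of 14 were higher and 2 lower, a share close to the 13.2% of all genes. Their median was -0.52, against -0.34 for all genes over the level minimum. Of the 14, 2 had a difference above 0 (14.3%), beside 29.1% of all genes over the level. With the level trend removed the list's median was -0.16, and 1 of the 14 was higher and 1 lower. The share above 0 was then 35.7%, beside 49.7% of all genes over the level. Eif2ak2, which encodes PKR and is an interferon-stimulated gene, had 71.9 with IL-27 and 225 with vehicle, at least 1.73-fold lower. Eif2ak4, which encodes the amino acid sensor GCN2, had 184 with IL-27 and 378 with vehicle (-1.04, or -0.52 with the level trend removed). Eif2b2, of the eIF2B exchange factor, differed by -0.84 and Eif2ak1, which encodes HRI, by -0.82. Eif2s2, an eIF2 subunit, differed by 0.80 by its brighter probe set and 0.02 by the other. Kinase activity and eIF2 phosphorylation were not measured.

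The other arms of the unfolded protein response, run by XBP1 and ATF6, held 0 higher and 2 lower genes of 18. The lower share was close to the 13.2% of all genes over the level, of which 1.52% were higher. Sdf2l1, a chaperone partner of the endoplasmic reticulum, had 541 with IL-27 and 1256 with vehicle (-1.22). Pdia4, a disulfide isomerase, had 476 with IL-27 and 1121 with vehicle (-1.24), though its dim second probe set gave 0.48. With the level trend removed both stood at -0.83. Hspa5, the chaperone BiP and the usual reporter of endoplasmic reticulum stress, had 2508 with IL-27 and 2787 with vehicle (-0.15, or 0.03 with the trend removed). Hsp90b1 and Dnajc3 differed by -0.65 and -0.63. The median of the 18 was -0.31, near that of all genes over the level minimum (-0.34), and 0.06 with the trend removed.

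**Figure D4:**
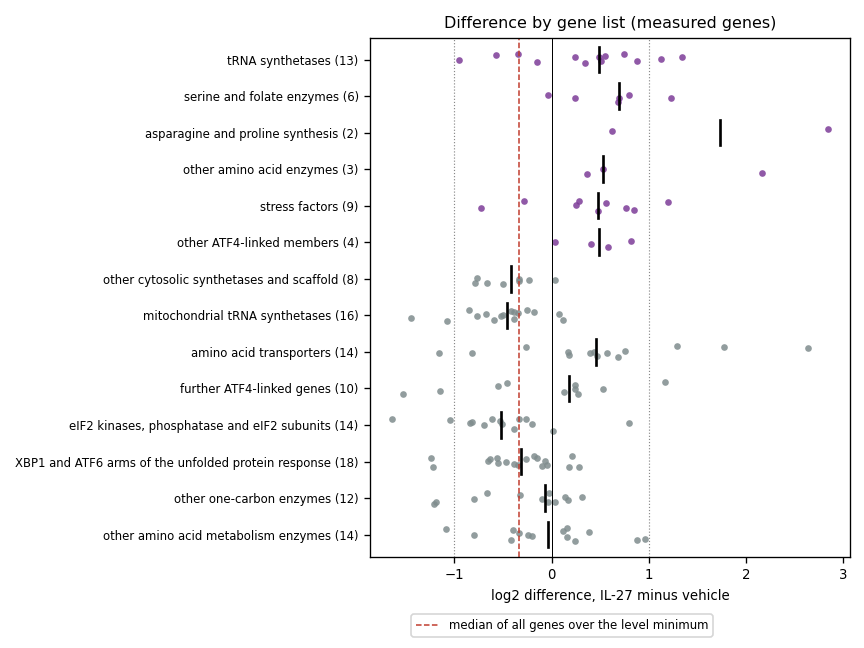
Log2 difference (IL-27 minus vehicle) of each measured gene in the member subgroups (purple) and in the related lists (grey), with the number of genes in brackets, the list median as a black bar and dotted lines at the size rule. The member subgroups have medians from 0.48 to 1.73, and of the related lists the amino acid transporters have 0.46.

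The difference between the arrays depended on level, which bears on the members since most sit at mid level. Genes not expected here were brighter on the IL-27 array, with an olfactory receptor median of 59.0 with IL-27 and 40.5 with vehicle. Of the olfactory receptor genes, 98.9% had a difference above 0. Cth, Gpt2, Vldlr and Stc2, within the olfactory range with IL-27, are among the members with a difference above 0. At the members' own levels the trend over all genes, drawn by lowess, ran from -0.53 to 0.23. Relative to this trend 34 of the 37 measured members lay above 0, beside 49.6% of all genes, and the members' median was 0.88. Of the 34 members over the level, 16 were 2-fold higher and 0 lower, beside 3.06% and 5.33% of all genes over the level. Those 16 include Atf4 (1.05), Shmt2 (1.21), Phgdh (1.11), Psat1 (1.32), Iars (1.22), Nars (1.01), Mars1 (1.07), Aldh18a1 (1.09), Nupr1 (1.21) and Eif4ebp1 (1.30), all short of 2-fold as deposited. The gap between the members' median and that of all genes over the level minimum was 0.87 as deposited. It was 0.87 with quantile normalization, 0.88 with the trend removed, 0.79 with an offset of 16 and 0.72 with folds against the olfactory limit. Median centring shifts every gene alike, so its 0.87 is no separate check. The members were picked with these values known, so the other scalings do not test their excess over all genes either.

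**Figure D5:**
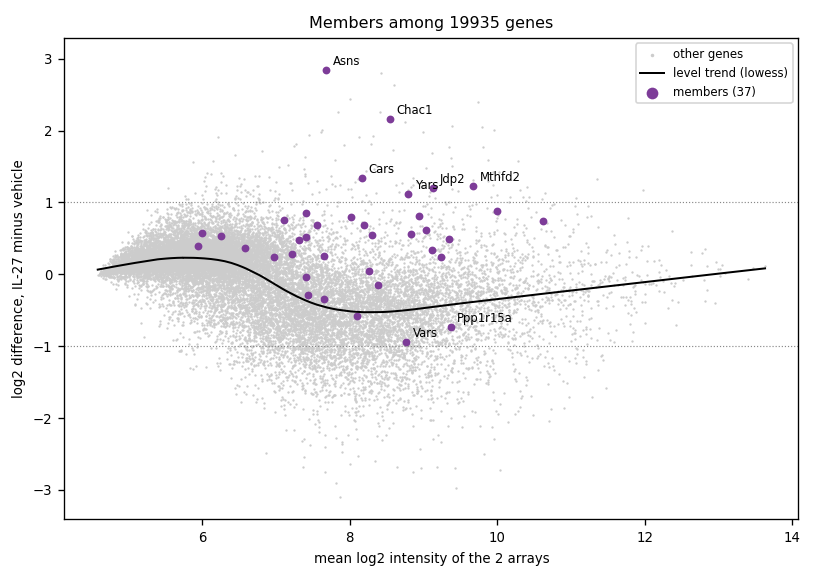
Log2 difference (IL-27 minus vehicle) against the mean log2 intensity of the 2 arrays for 19935 genes, with the 37 members in purple, the lowess level trend in black and dotted lines at the size rule. Of the members, 34 lie above the trend, and Vars and Ppp1r15a lie furthest below it.

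The labelled cell type was checked against its markers. All 11 dendritic cell markers were over the level minimum and 3 of them were lower with IL-27. Among all genes over the level, 13.2% were lower. The markers' median difference was -0.67, and 2 of the 11 lay above 0, beside -0.34 and 29.1% for all genes over the level. With the level trend removed the markers' median was -0.31, and 3 of the 11 lay above 0. Flt3 then stood at -0.76, short of 2-fold. The lower markers as deposited were Xcr1 (559 with IL-27 and 1579 with vehicle), Sirpa (a difference of -1.42) and Flt3 (-1.08). Others were H2-Ab1 (8222 with IL-27 and 8357 with vehicle), Itgax (1829 with IL-27 and 3371 with vehicle) and Zbtb46 (340 with IL-27 and 344 with vehicle). The summed intensity of the 11, of which H2-Ab1 and Cd74 make up much, was 25371 with IL-27 and 32467 with vehicle. Markers of macrophages and monocytes were present too, and 10 of 12 were lower with IL-27, beside the same 13.2%. With the level trend removed 10 of the 12 were still 2-fold lower, beside 5.33% of all genes over the level. The summed intensity of the 12 was 11803 with IL-27 and 31813 with vehicle. With IL-27, all 4 T cell markers and all 4 NK cell markers were at or below the olfactory limit of 129, while with vehicle Cd3e (82.0), Lat (79.6) and Prf1 (94.2) were above that of 77.3. All 3 B cell markers exceeded the limit on both arrays, with summed intensities of 764 with IL-27 and 1254 with vehicle, and Ms4a1 was lower. Of the 4 neutrophil markers S100a9 exceeded it, with 137 with IL-27 and 79.4 with vehicle. No marker had an intensity of 0. The part that the lower macrophage, dendritic cell and B cell markers play in the members' differences was not tested.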

How the data were processed

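RNA of 2 samples was hybridised to 1 Affymetrix array each. The deposited table holds a linear intensity for each of 28815 probe sets on both arrays. Per the labels' protocols, material was fragmented and biotin-labelled with the WT Terminal Labeling Kit. Per the submitters' processing notes the build was mm8. How background, summarization and scaling were handled is not stated in the labels or the table. GEO's platform annotation assigned 21780 probe sets to 1 gene. The deposited values were converted to log2 without a pseudocount (numpy 2.4.6, pandas 2.3.3), and the level trend was fitted by lowess (statsmodels 0.14.6, span 0.3). With 1 array per group no test was possible, and precision is limited by the number of arrays. The members, lists, size rule and olfactory limit were chosen with earlier results of these data known. All measured members are given. In each related list, genes past the size rule and up to 4 with the largest differences over the level minimum were named, and others (such as Slc3a2, Sesn2, Rars, Hspa5 and Got2) after their values were seen. Alternatives were median centring, quantile normalization, removal of the level trend, an offset of 16, a 1.5-fold rule, other level minimums, folds against the olfactory limit, the mean of probe sets and the list mean. Intensities of different probe sets cannot be compared as levels. Promoter sequences are RefSeq's (GRCm38.p6), and 31 of 39 members matched by symbol.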

Additional observations from a re-analysis of the deposited data

How the results depend on the processing

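The count of members past the size rule was 6 higher and 0 lower as deposited. It moved to 10 higher with quantile normalization, 16 higher with the level trend removed, and 15 higher and 2 lower at 1.5-fold. With median centring 1 was lower (Vars, -1.05), and with the level minimum set on both arrays Asns lost its call, which left 5 higher. Among all genes the counts were 169 higher and 1468 lower as deposited, so that 10.3% of those called were higher. That share was 20.5% with quantile normalization (234 higher and 909 lower) and 36.5% with the trend removed (341 higher and 594 lower). At 1.5-fold the counts were 653 higher and 3753 lower, and with the level minimum on both arrays 97 higher and 1191 lower. The members' median of 0.53 stayed between 0.43 and 0.88 under the other scalings. No member past the size rule changed direction under any setting run. Settings that change only the size rule or the level minimum cannot alter a direction. Under the other scalings the smallest difference among these members was 1.02 (Yars, median centring). The median of the XBP1 and ATF6 list turned to 0.06 with the trend removed, and the further ATF4-linked genes had -0.11 by the mean. The cause was not tested. Median centring turned the differences of Xpot and Rars to -0.06 each. The promoter count of 12 became 9 with either the upstream bases alone or TGATGCAA, both chosen after seeing the data. No paired analysis was possible because each group had 1 array. Signal near the olfactory range limits what can be said of Cth, Gpt2, Vldlr and Stc2.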
